A study of Mus musculus with 8 samples.

Results

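The 41 genes described here are immediate early and acute stress genes, that is, genes switched on within an hour by signals at the cell surface, by tissue dissociation or by heat. They form a list of symbols, chosen with earlier results of these data known, and all 41 were found among the 27179 gene IDs of the count table. Of these, 40 passed the filter on low counts and were tested among 14238 genes, and Fosl1, with at most 2 reads in any library, was not tested. The RNA came from dendritic cells (DC) of the spleen, sorted from C57BL/6 mice that all carried leukemia. The mice had received panobinostat, an inhibitor of histone deacetylases, or vehicle, for 2 days. Plasmacytoid DC (pDC), the main producers of type I interferon, and conventional DC (cDC), which present antigen to T cells, gave 4 groups: vehicle pDC, panobinostat pDC, vehicle cDC and panobinostat cDC. Each group had 2 libraries, and each library pooled 3 to 6 mice, so the spread between libraries is that between pools and not between animals. No group of mice without leukemia was among the samples used here. The extraction text in the labels speaks of leukemia cells, whereas titles and cell type labels name DC. The pDC marker Siglech stood at 4061 to 6548 CPM in the 4 pDC libraries and at 1.57 to 3.26 CPM in the 4 cDC libraries. The cDC factor Zbtb46 stood at 137 to 199.9 CPM in cDC and at 2.37 to 19.6 CPM in pDC. All 10 pDC markers on the list checked were higher in every pDC library than in every cDC library. Of 11 cDC markers, 6 were higher in every cDC library, 3 overlapped (Clec9a, Sirpa and H2-Ab1), and 2 were higher in every pDC library: Cd209a at 754 to 1883 CPM against 81.3 to 142, and Clec10a at 381 to 666 CPM against 3.74 to 16.8.

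Most immediate early genes are controlled by factors already present in the resting cell, such as serum response factor, CREB and their kinases, so that transcription starts within minutes and needs no new protein. Their messages are short lived, and many of the products shut the response down again: the DUSP phosphatases inactivate MAP kinases, and tristetraprolin (Zfp36) promotes the decay of AU-rich messages. The heat shock genes on the list answer to heat shock factor 1 and encode chaperones. In DC both sets are known to respond to microbial stimuli and to the digestion and sorting of tissue.

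Levels are given as CPM, the depth-scaled read count computed from TMM-scaled library sizes, in the order replicate 1, replicate 2. Differences are log2 fold changes ± standard error, where every group has n = 2. Each adjusted p comes from edgeR's quasi-likelihood F test on the whole table (Benjamini-Hochberg), and a gene was called at an adjusted p under 0.05. This fit has no term for the replicate number, although deviations from group means correlated at 0.146 to 0.489 between same-numbered libraries. Changes of calls on the list with the replicate number as a block are given below. Total counts ran from 13124861 to 20657429 per library. The library of panobinostat pDC replicate 2 stood apart: it held 10745 detected genes where the others held 14927 to 19950, and 27.5% of all tested genes were at 0 in it, against 0.744% to 6.64% elsewhere. In this library 10 of the 41 genes were at 0 (Fosl1, Fosl2, Egr2, Egr3, Ier3, Nr4a1, Dusp4, Myc, Rhob and Gadd45a), against 3 in the other panobinostat pDC library, 2 and 1 in vehicle pDC and 0 in every cDC library. In bulk samples a change in the cells that make up a pool and a change in RNA per cell cannot be told apart.

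Together the 41 genes took up more of the cDC than of the pDC transcriptome. Their CPM values summed to 5873 and 7151 in vehicle pDC against 8560 and 5609 with panobinostat, and 11188 and 12625 in vehicle cDC against 17629 and 17617 with panobinostat. All 4 pDC sums lay below all 4 cDC sums, and within cDC the panobinostat sums lay above the vehicle sums. The full separation rests on Hspa1a and Hspa1b, at 1820 and 1212 CPM in vehicle cDC replicate 1 and 34.5 and 21.7 in panobinostat pDC replicate 1. Without this pair the vehicle cDC replicate 1 sum falls below the panobinostat pDC replicate 1 sum. Within each treatment the cDC sums still lie above the pDC sums. Per kilobase of exon, the highest mean levels in vehicle pDC were those of Fos (431 CPM per kb), Jun (324), Btg2 (318) and Zfp36 (244). In vehicle cDC they were Junb (576), Fos (547), Jun (388), Zfp36 (342) and Hspa1a (313). The order among these neighbours is not firm, since the replicates of Fos in vehicle pDC alone differed 2.94-fold. The plot of levels by library shows each gene in each of the 8 libraries.

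**Figure D1:**
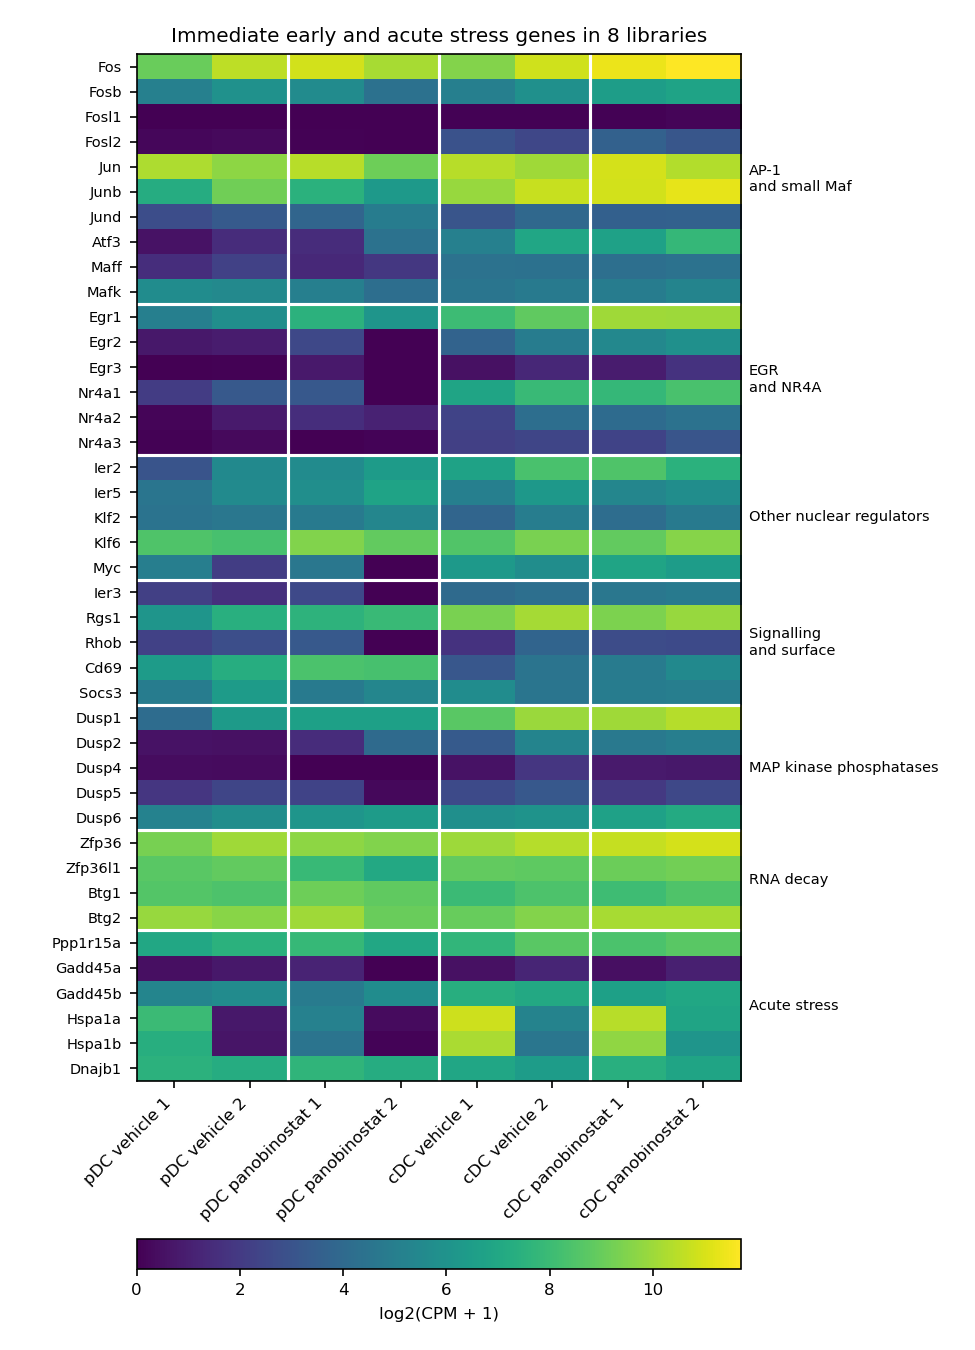
Log2 CPM of the 41 genes (rows, ordered by role) in the 8 libraries (columns, by group and replicate). Most EGR, NR4A and DUSP genes are lower in the 4 pDC columns than in the 4 cDC columns, and Hspa1a and Hspa1b differ between replicate 1 and replicate 2 in every group.

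The widest contrast was between the cell types. In vehicle, 7 genes were lower in pDC than in cDC (Fosl2, Egr1, Dusp1, Dusp2, Maff, Rgs1 and Gadd45b) and Cd69 was higher. These 8 calls are 20% of the 40 tested, where 9.73% of all genes tested were called (5.01% higher and 4.71% lower in pDC). The median difference of the 40 genes was -1.37 on the log2 scale and 32 were below 0, while the median of all genes tested was 0.02. Both pDC libraries lay below both cDC libraries for 22 of the 40 (55%), against 35.5% of all genes tested, and above them for 4 (10%), against 35.1%.

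With panobinostat, 11 genes were lower in pDC than in cDC (Fosl2, Junb, Egr1, Nr4a1, Nr4a3, Dusp1, Zfp36, Zfp36l1, Maff, Rgs1 and Gadd45b) and Cd69 was again higher. These 12 are 30% of the 40, where 18% of all genes tested were called (7.76% higher and 10.2% lower in pDC). The median difference was -1.57 with 33 genes below 0, against a median of -0.18 for all genes tested. The libraries did not overlap for 27 genes lower in pDC (67.5%), against 38% of all genes tested, and for 4 higher (10%), against 24.7%. The 7 genes called in both comparisons (Fosl2, Egr1, Dusp1, Maff, Rgs1, Cd69 and Gadd45b) are 87.5% of those called in vehicle and 58.3% of those called with panobinostat.

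These calls rest on few libraries. Leaving out any vehicle library or panobinostat cDC library lowered the calls in both contrasts, on the list and among all genes alike. Leaving out either panobinostat pDC library raised them, again on the list and among all genes. In each such fit 1 group was left with 1 library. The median of the list ran from -1.39 to -0.62 in vehicle and from -2.20 to -1.24 with panobinostat. The lowest panobinostat median, without panobinostat pDC replicate 1, stood beside -1.20 for all genes. The vehicle median of -1.37 became -0.62, with 12 of 40 genes above 0, without vehicle cDC replicate 2. Fitted on only the 4 libraries compared, 15 genes were called in vehicle, where 32.8% of all genes were, and 1 (Dusp1) with panobinostat, where 1.21% were. With the replicate number as a block, 9 were called in vehicle, where 8.72% of all genes tested were: Dusp2 was lost (adjusted p = 0.0533), and Atf3 and Dnajb1 were gained. With panobinostat 14 were called under the block, where 16.2% of all genes tested were: Nr4a1 was lost (adjusted p = 0.0777), and Atf3, Hspa1a and Hspa1b were gained.

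**Figure D2:**
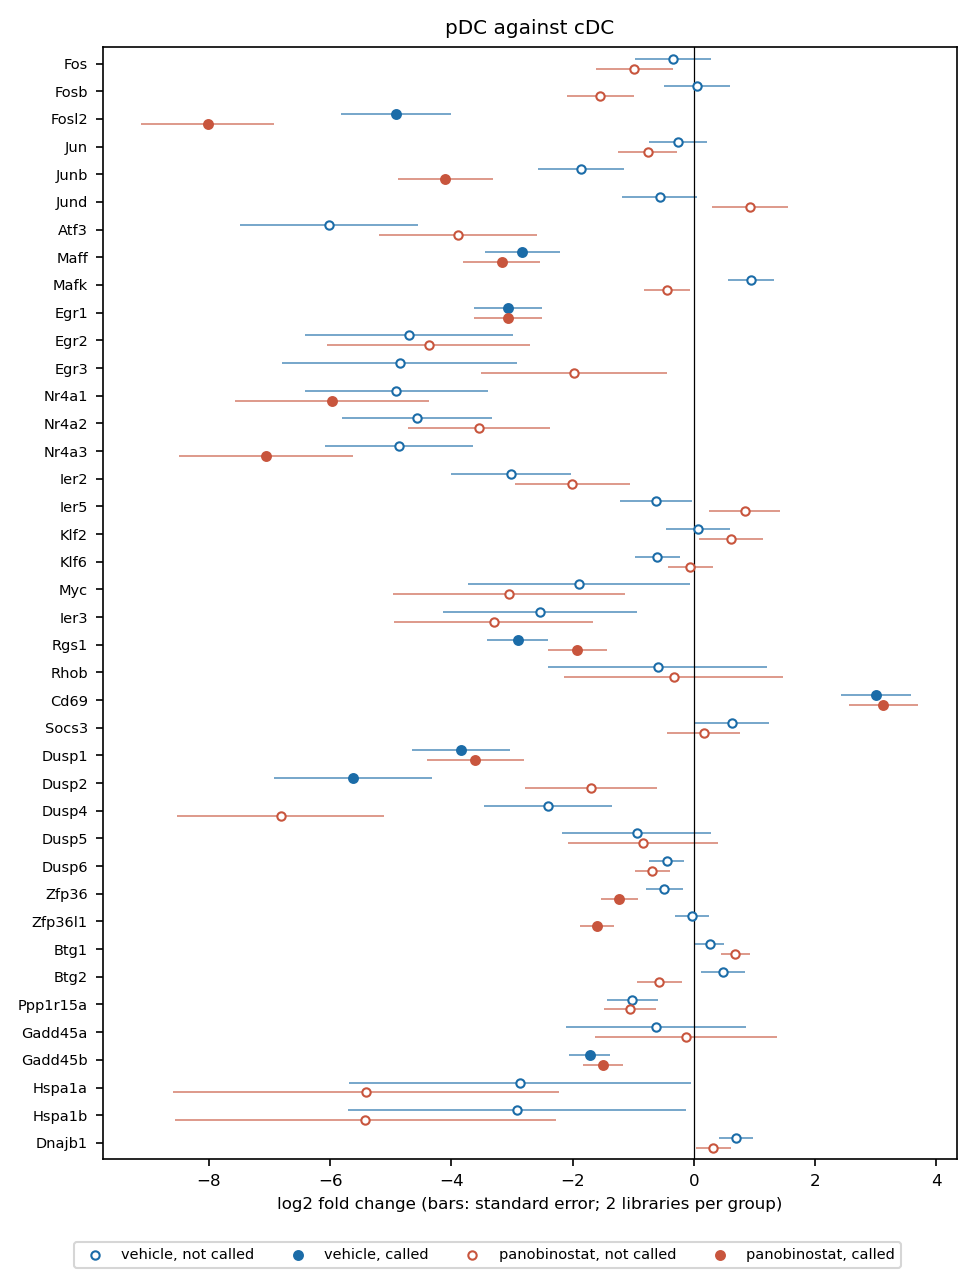
Log2 fold change of pDC against cDC for the 40 genes tested, in vehicle and with panobinostat. Points are estimates, bars their standard errors, and filled points the genes called. The panobinostat points of Fosl2, Nr4a3 and Dusp4 and the vehicle point of Egr3 are fitted values that rest on 0 or 1 reads in pDC. Most points lie left of 0, from Fosl2 with panobinostat at the low end to Cd69, the gene called as higher in pDC.

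Among the AP-1 genes, whose products pair as FOS-JUN or ATF-JUN dimers on DNA, the abundant Fos and Jun messages were not called between the cell types. Fos read 515 and 1513 CPM in vehicle pDC against 1894 and 1140.1 with panobinostat, and 741 and 1833 in vehicle cDC against 2634 and 3347 with panobinostat. The vehicle groups overlapped, while with panobinostat both pDC libraries lay below both cDC libraries, and pDC differed from cDC by -0.34 ± 0.63 in vehicle (adjusted p = 0.856) and -0.98 ± 0.63 with panobinostat (adjusted p = 0.325). Jun read 1234 and 834 in vehicle pDC against 1403 and 552 with panobinostat, and 1414 and 1062 in vehicle cDC against 2004 and 1315 with panobinostat. For Jun, replicate 1 was the higher library in each of the 4 groups, and the cell types overlapped.

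Junb, a JUN protein known as a weaker activator than JUN itself, was at 149 and 577 CPM in vehicle pDC against 177 and 79.7 with panobinostat, and 959 and 1690.4 in vehicle cDC against 1929 and 2470.3 with panobinostat. All pDC values lay below all cDC values; the gene was called with panobinostat (-4.10 ± 0.78, adjusted p = 0.0200) but not in vehicle (-1.87 ± 0.71, adjusted p = 0.169), and the difference of these contrasts was not called (adjusted p = 0.666). Fosl2, a FOS relative, gave 3 and 4 reads in vehicle pDC against 1 and 0 with panobinostat, and 146 and 101 in vehicle cDC against 234 and 145 with panobinostat. It was lower in vehicle pDC than in vehicle cDC (-4.92 ± 0.90, adjusted p = 0.0239). With panobinostat, where pDC held 1 read in all, the cDC level was 299.5 times the pDC level, with a 95% counting interval of 53.4 to 11861 (adjusted p = 0.00785).

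Atf3, a stress-induced repressor of the same family, read 0.504 and 1.84 CPM in vehicle pDC against 1.78 and 20.4 with panobinostat, and 32.9 and 119 in vehicle cDC against 104 and 223 with panobinostat. Every pDC library lay below every cDC library, and replicate 2 was above replicate 1 in all 4 groups. The cell type difference in vehicle missed the threshold without the replicate block (-6.02 ± 1.47, adjusted p = 0.0548) and passed it with the block (-6.03 ± 0.71, adjusted p = 0.0114). With panobinostat it was -3.89 ± 1.31 (adjusted p = 0.0879, and 0.0161 with the block).

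The small Maf proteins lack an activation domain and pair with AP-1 and NRF2 proteins. Maff was at 1.87 and 3.73 CPM in vehicle pDC against 1.54 and 2.79 with panobinostat, and 20.5 and 19.4 in vehicle cDC against 18.3 and 20.5 with panobinostat. Maff was lower in pDC in vehicle (-2.83 ± 0.62, adjusted p = 0.0395) and with panobinostat (-3.17 ± 0.63, adjusted p = 0.0229), and the panobinostat and vehicle libraries of each cell type overlapped. Mafk, its close relative, read 50.04 and 44.2 in vehicle pDC against 31.9 and 18.02 with panobinostat, and 22.8 and 26.2 in vehicle cDC against 29.2 and 38.5 with panobinostat. Here vehicle pDC was the highest group, and neither cell type contrast was called (0.94 ± 0.38, adjusted p = 0.194, and -0.44 ± 0.38, adjusted p = 0.463). The remaining AP-1 genes, Fosb and Jund, were called in no comparison, with group means of 34.6 to 101 CPM and 7.46 to 21.2 CPM.

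All 6 genes of the EGR zinc finger and NR4A orphan receptor families had both pDC libraries below both cDC libraries, in vehicle and with panobinostat. Their median cell type difference was -4.78 in vehicle and -3.96 with panobinostat. Egr1 read 32.0 and 53.8 CPM in vehicle pDC against 182 and 67.5 with panobinostat, and 261 and 460.0 in vehicle cDC against 1062 and 1033 with panobinostat. The Egr1 libraries of the 4 groups did not overlap within or between cell types. It was lower in pDC by -3.07 ± 0.56 in vehicle (adjusted p = 0.0239) and by -3.07 ± 0.56 with panobinostat (adjusted p = 0.0182).

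Nr4a1, the NUR77 receptor used as a reporter of antigen receptor signalling, read 3.23 and 8.65 CPM in vehicle pDC against 8.43 and 0 with panobinostat, and 114 and 242 in vehicle cDC against 223 and 327 with panobinostat. Its cell type difference was called with panobinostat (-5.97 ± 1.59, adjusted p = 0.0491) and not in vehicle (-4.91 ± 1.52, adjusted p = 0.103), and the difference of these contrasts was not called (adjusted p = 0.938). Nr4a3 gave 1 and 4 reads in vehicle pDC against 0 and 1 with panobinostat, and 79 and 95 in vehicle cDC against 84 and 137 with panobinostat. With 1 pDC read in all, the panobinostat cDC level was 175 times the pDC level, with a counting interval of 31.0 to 6929 (adjusted p = 0.0244), and in vehicle the difference missed the threshold (-4.86 ± 1.22, adjusted p = 0.0602). Egr2, Egr3 and Nr4a2 were called in neither, at differences of -4.71 to -4.56 in vehicle for Egr2 and Nr4a2. Egr3 held 1 read in both vehicle pDC libraries and 41 in vehicle cDC, a ratio of 36.4 with a counting interval of 6.18 to 1474.

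The MAP kinase phosphatases feed back on ERK, JNK and p38. Dusp1, which is nuclear and acts on p38 and JNK, read 16.8 and 81.9 CPM in vehicle pDC against 99.1 and 98.9 with panobinostat, and 419 and 997 in vehicle cDC against 1053 and 1358 with panobinostat. It was lower in pDC by -3.84 ± 0.81 in vehicle (adjusted p = 0.0359) and by -3.61 ± 0.80 with panobinostat (adjusted p = 0.0304), and its panobinostat libraries lay above the vehicle libraries in both cell types. Dusp2, a nuclear phosphatase of activated blood cells, read 0.504 and 0.432 in vehicle pDC against 1.83 and 15.5 with panobinostat, and 8.90 and 37.8 in vehicle cDC against 25.4 and 30.8 with panobinostat. In vehicle it was lower in pDC (-5.62 ± 1.31, adjusted p = 0.0475, and 0.0533 with the replicate block). With panobinostat its cell type difference was -1.70 ± 1.09 (adjusted p = 0.318).

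Dusp6, the cytoplasmic ERK phosphatase, read 35.5 and 52.7 CPM in vehicle pDC against 67.1 and 84.9 with panobinostat, and 56.8 and 63.1 in vehicle cDC against 103 and 141 with panobinostat. Each pDC group lay below its cDC group without a call (-0.44 ± 0.29, adjusted p = 0.441, and -0.68 ± 0.29, adjusted p = 0.150). Dusp4 gave 6 and 5 reads in vehicle pDC against 0 and 0 with panobinostat, and 10 and 57 in vehicle cDC against 16 and 13 with panobinostat. Against a floor of 3 reads over the panobinostat pDC group, its level there was at least 7.64-fold lower than in panobinostat cDC (adjusted p = 0.0502). Dusp5 was called in no comparison, with group means of 2.13 to 6.79 CPM.

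The 4 RNA decay genes were among the most abundant and differed least between the cell types in vehicle, with a median difference of 0.11. Zfp36 read 642 and 1050.5 CPM in vehicle pDC against 835 and 713 with panobinostat, and 1005 and 1367 in vehicle cDC against 1658 and 1976 with panobinostat. Zfp36 was called as lower in pDC with panobinostat (-1.23 ± 0.31, adjusted p = 0.0412) and not called in vehicle (-0.49 ± 0.30, adjusted p = 0.415). Zfp36l1, a relative that also binds AU-rich messages, read 415 and 481 in vehicle pDC against 238 and 135 with panobinostat, and 469 and 449 in vehicle cDC against 536 and 591 with panobinostat. Panobinostat pDC was the lowest group by a margin without overlap, and the cell type difference was called with panobinostat (-1.60 ± 0.29, adjusted p = 0.0171) but not in vehicle (-0.03 ± 0.28, adjusted p = 0.979). The test of the difference between these contrasts gave an adjusted p of 0.403 for Zfp36l1 and 0.764 for Zfp36.

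Btg1 and Btg2, antiproliferative proteins that recruit the CCR4-NOT deadenylase, were not called. Btg1 read 383 and 345 CPM in vehicle pDC against 561 and 459.6 with panobinostat, and 256 and 350.4 in vehicle cDC against 272 and 362 with panobinostat. It was the only RNA decay gene with panobinostat pDC above panobinostat cDC in both libraries (0.69 ± 0.24, adjusted p = 0.0998). Btg2 read 950.3 and 797 in vehicle pDC against 1035 and 521 with panobinostat, and 503 and 744 in vehicle cDC against 1149 and 1155 with panobinostat. Its order turned from pDC above cDC in vehicle (0.49 ± 0.36, adjusted p = 0.518) to pDC below cDC with panobinostat (-0.57 ± 0.36, adjusted p = 0.320), with neither called.

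Among the other nuclear regulators no gene was called between the cell types. Klf2, a factor of lymphocyte quiescence, read 21.2 and 24.2 CPM in vehicle pDC against 26.7 and 40.7 with panobinostat, and 13.1 and 30.1 in vehicle cDC against 17.0 and 27.1 with panobinostat, and the sole non-overlapping pair among these comparisons was panobinostat pDC above vehicle pDC. Myc, the growth regulator, read 31.4 and 3.41 in vehicle pDC against 24.1 and 0 with panobinostat, and 77.5 and 51.8 in vehicle cDC against 113 and 88.7 with panobinostat. Its replicate 1 library was the higher in all 4 groups, and all pDC values lay below all cDC values (-1.89 ± 1.83, adjusted p = 0.647, and -3.05 ± 1.91, adjusted p = 0.310). Klf6, Ier2 and Ier5 had group means of 337 to 618, 26.6 to 270.3 and 34.6 to 82.5 CPM.

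The signalling and surface genes held opposite extremes. Rgs1, which damps G protein signals from chemokine receptors, read 68.8 and 166 CPM in vehicle pDC against 188 and 242 with panobinostat, and 645 and 1111 in vehicle cDC against 679 and 952 with panobinostat. Rgs1 was lower in pDC in vehicle (-2.91 ± 0.51, adjusted p = 0.0204) and with panobinostat (-1.92 ± 0.49, adjusted p = 0.0430). Cd69, the early activation antigen that holds cells in tissue by binding the S1P receptor, read 84.7 and 156 in vehicle pDC against 340.2 and 314 with panobinostat, and 8.01 and 21.9 in vehicle cDC against 28.1 and 46.8 with panobinostat. It was higher in pDC in vehicle (3.00 ± 0.57, adjusted p = 0.0268) and with panobinostat (3.13 ± 0.57, adjusted p = 0.0182), and the 4 groups did not overlap.

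Cd69 is also carried by lymphocytes. The 9 natural killer cell markers summed to 179 to 275 CPM in vehicle pDC, 592 to 1319 in panobinostat pDC, 146 to 193 in vehicle cDC and 212 to 458 in panobinostat cDC. In pDC nearly all of this was Klrk1 and Klrd1: Gzmb and Eomes were at 0 in both panobinostat pDC libraries and Ncr1 was at 0 to 1.39 CPM in the 4 pDC libraries. In panobinostat cDC replicate 2 Ncr1 reached 43.1 CPM and Gzma 50.5 CPM. The 6 T cell markers summed to 208 to 865 CPM in pDC, mostly Cd8b1, and to 6.01 to 61.7 CPM in cDC, with Cd3e and Themis at 0 in both panobinostat pDC libraries. The part of these cells in the Cd69 values of cDC was not tested. Rhob, Socs3 and Ier3 were called in no comparison, with group means of 4.29 to 7.47, 30.5 to 56.7 and 2.50 to 25.2 CPM.

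Of the acute stress genes, Gadd45b was called between the cell types. This p38 pathway activator read 39.3 and 49.6 CPM in vehicle pDC against 28.5 and 51.1 with panobinostat, and 160.2 and 133 in vehicle cDC against 98.7 and 126 with panobinostat. It was lower in pDC by -1.72 ± 0.33 in vehicle (adjusted p = 0.0285) and by -1.50 ± 0.33 with panobinostat (adjusted p = 0.0303). Ppp1r15a, the GADD34 subunit that restores translation after stress, read 130.0 and 178 in vehicle pDC against 232 and 129.8 with panobinostat, and 206 and 416 in vehicle cDC against 337 and 416 with panobinostat. All its pDC libraries lay below the cDC libraries of the same treatment, without a call (-1.01 ± 0.43, adjusted p = 0.211, and -1.06 ± 0.43, adjusted p = 0.138). Gadd45a was near the floor, with group means of 0.553 to 0.856 CPM.

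Hspa1a and Hspa1b, near-identical genes for the inducible HSP70 chaperone, differed more between replicates than between treatments. Their promoters, from RefSeq on GRCm38.p6, are shown because Hspa1a and Hspa1b moved together. That of Dusp1 is shown because Dusp1 was called in both cell type contrasts. Each window is the 250 bases before the start, on the minus strand. Capitals mark GAANNTTC (2 units of the heat shock element) in the HSP70 genes and TGACGTCA (the cAMP response element) in Dusp1.
Hspa1a promoter, chr17:34972157-34972406: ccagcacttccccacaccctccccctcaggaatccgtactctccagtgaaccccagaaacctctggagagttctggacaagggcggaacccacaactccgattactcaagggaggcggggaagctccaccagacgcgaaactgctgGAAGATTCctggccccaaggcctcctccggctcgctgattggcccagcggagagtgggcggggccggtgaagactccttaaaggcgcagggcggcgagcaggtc
Hspa1b promoter, chr17:34959239-34959488: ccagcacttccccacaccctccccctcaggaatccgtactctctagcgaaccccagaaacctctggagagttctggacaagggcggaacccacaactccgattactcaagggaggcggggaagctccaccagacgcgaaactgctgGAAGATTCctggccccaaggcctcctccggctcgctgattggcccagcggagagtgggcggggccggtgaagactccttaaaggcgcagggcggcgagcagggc
Dusp1 promoter, chr17:26508473-26508722: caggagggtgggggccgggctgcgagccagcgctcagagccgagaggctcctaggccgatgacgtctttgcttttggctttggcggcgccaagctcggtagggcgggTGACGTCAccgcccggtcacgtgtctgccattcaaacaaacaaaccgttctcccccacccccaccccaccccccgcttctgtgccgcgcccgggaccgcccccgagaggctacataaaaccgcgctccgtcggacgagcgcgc
The windows of Hspa1a and Hspa1b differ at 3 of 250 bases (98.8% identical), and the GAANNTTC match lies 104 to 97 bases before the start in both. The Dusp1 match lies 143 to 136 bases before its start. Both strands were searched, and the 2 units were taken in either order, GAANNTTC or TTCNNGAA. Such a match was in 4 of the 33 promoters of the list that the table holds (12.1%: Fosl2, Jun, Hspa1a and Hspa1b). Of 32851 promoters, 12.8% held such a match. TGACGTCA was in 3 (9.09%: Dusp1, Btg2 and Ppp1r15a) against 1.55%, and the CArG box, the serum response factor motif, in 3 (9.09%: Egr2, Dusp5 and Zfp36) against 1.47%. The AP-1 motif TGANTCA was in 1 (3.03%: Zfp36l1) against 6.75%, and GAANNTTCNNGAA (3 units of the heat shock element) in 0 against 0.466%.

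Hspa1a read 254 and 0.703 CPM in vehicle pDC against 34.5 and 0.279 with panobinostat, and 1820.5 and 37.3 in vehicle cDC against 1383 and 115 with panobinostat. Hspa1b read 163 and 0.595, 21.7 and 0.0929, 1212 and 23.3, and 882 and 68.6 in the same order. In each of the 4 groups replicate 1 exceeded replicate 2, for Hspa1a by 361-fold in vehicle pDC (13 reads in replicate 2), 124-fold in panobinostat pDC (3 reads, 95% counting interval 42.1 to 601), 48.8-fold in vehicle cDC and 12.1-fold in panobinostat cDC. The Hspa1b to Hspa1a count ratio was 0.599 to 0.666 in the 6 libraries with more than 100 reads of Hspa1a, and reads that fit both copies may have been split between them. Within the replicate numbers, the vehicle cDC level of Hspa1a was 7.18 times that of vehicle pDC in replicate 1 and 53.1 times in replicate 2. Without the replicate block Hspa1a was not called in vehicle (-2.87 ± 2.82, adjusted p = 0.655) or with panobinostat (-5.41 ± 3.18, adjusted p = 0.279), and with the block it was called with panobinostat (adjusted p = 0.0308) and not in vehicle (adjusted p = 0.120).

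Dnajb1, the HSP40 partner of HSP70, read 182 and 152 CPM in vehicle pDC against 202 and 149 with panobinostat, and 120 and 86.6 in vehicle cDC against 167 and 114 with panobinostat. Replicate 1 was again above replicate 2 in every group, by 1.20-fold to 1.46-fold, and in vehicle both pDC libraries lay above both cDC libraries (0.70 ± 0.29, adjusted p = 0.202, and 0.0456 with the block). Because of the Hspa1a pattern, replicate 2 was compared with replicate 1 over all groups in the blocked fit, a comparison chosen after seeing the data. Of the 40 genes 0 were called (9 at an unadjusted p under 0.05), where 0% of all genes tested were called and 7.7% had an unadjusted p under 0.05. By DESeq2 6 of the 40 were called (15%: Jun, Ier5, Atf3, Hspa1a, Hspa1b and Dnajb1), against 1.25% of all genes. By edgeR with adjusted deviances 2 were called (5%: Hspa1a and Hspa1b), against 0.211%, and by limma-voom 0, against 0.0351%. The replicate 1 level of Hspa1a was 54.9 times that of replicate 2 in edgeR's blocked fit (adjusted p = 0.598). That of Hspa1b was 53.7 times (adjusted p = 0.598). A list of 20 other heat shock genes, described below, had a median of 0.07 for replicate 2 against replicate 1, with 60% above 0. For all genes tested the median was -0.10, with 43.9% above 0.

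In all 4 groups replicate 1 was higher for 5 of the 40 genes (12.5%: Jun, Myc, Hspa1a, Hspa1b and Dnajb1), against 14.8% of all genes tested. Replicate 2 was higher in all 4 for 7 (17.5%: Jund, Ier5, Atf3, Nr4a3, Dusp6, Klf2 and Rgs1), against 13.8%. Both shares are near those of all genes, while the size of the HSP70 difference was not: by the smallest excess of replicate 1 over the 4 groups, Hspa1b ranked 4 and Hspa1a 9 of 14238 genes. Named after their values were seen, the others among the first 10 included Hspa1l, the neighbouring HSP70 gene, and Il1rl1, Ms4a2 and Alox5, which are known from mast cells and basophils. Markers of other cells also differed by replicate number. The 5 erythroid markers summed higher in replicate 1 of every group: 1031 against 544 CPM in vehicle pDC, 3280.4 against 1079 in panobinostat pDC, 655 against 330.2 in vehicle cDC and 916 against 149 in panobinostat cDC. The B cell, T cell and natural killer cell markers summed higher in replicate 2 of every group. The 6 B cell markers, for example, stood at 131 against 432 CPM in vehicle cDC. In pDC the T cell sum was mostly Cd8b1, and the natural killer cell sum was nearly all Klrk1 and Klrd1. Plasma cell, neutrophil and DC markers also summed higher in replicate 2 of every group, though the neutrophil sums were only 0.10 to 7.02 CPM. The pDC markers, for example, summed to 14498 against 18495 CPM in vehicle pDC. The cDC markers summed to 18302 against 21904 in vehicle cDC, mostly from H2-Ab1 at 15827 and 19521. Single DC markers went both ways. In vehicle cDC Xcr1 read 257 and 407 CPM and Itgax 564 and 460. In vehicle pDC Irf8 read 1981 and 4048 CPM and Tcf4 1412 and 1064. The part of cells other than DC in the HSP70 values was not tested.

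**Figure D3:**
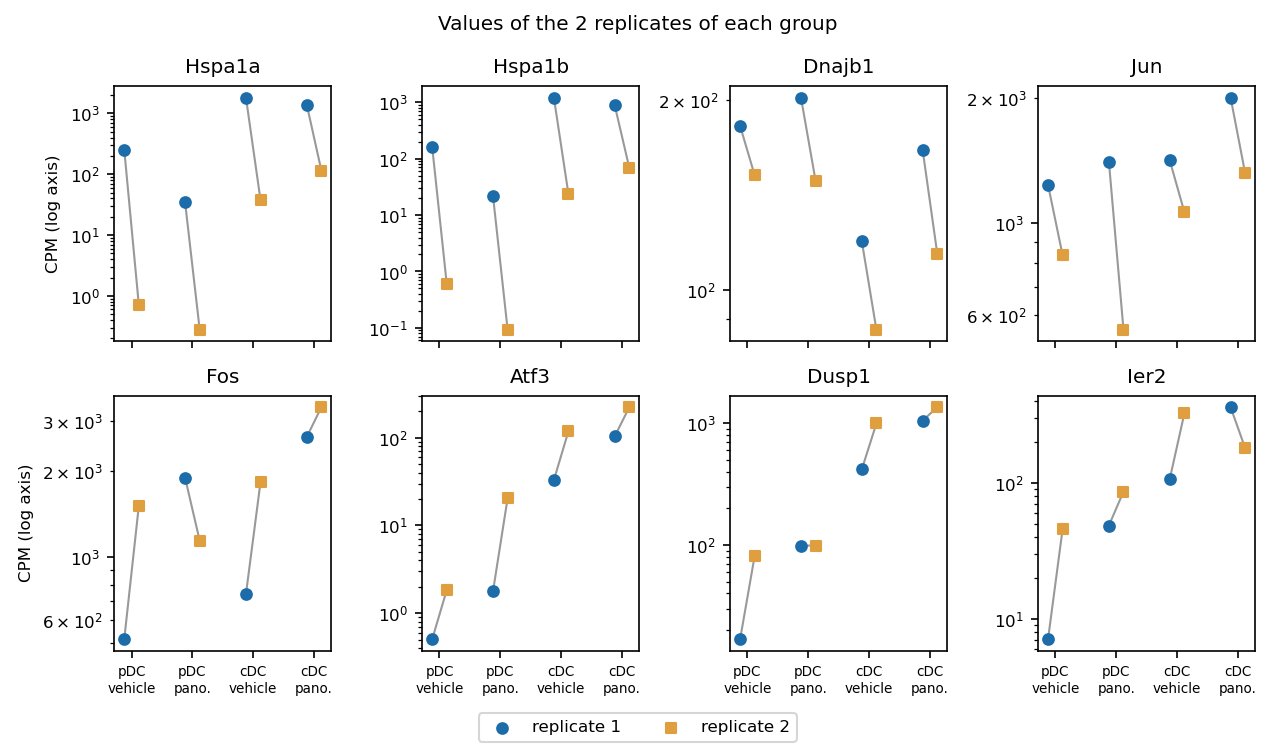
CPM (log axis, with its own range in each panel) of 8 genes in replicate 1 and replicate 2 of each group, with a line joining the 2 libraries of a group. For Hspa1a and Hspa1b replicate 1 lies far above replicate 2 in all 4 groups, and for Dnajb1 by 1.20-fold to 1.46-fold.

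Panobinostat in cDC moved no gene of the list past the threshold. By edgeR's quasi-likelihood test 0 of 40 were called, where 0% of all genes tested were called, and 4 of the 40 had an unadjusted p under 0.05 (Dusp6, Egr1, Cd69 and Btg2) against 1.45% of all genes. DESeq2 and limma-voom also called 0 of the 40. The median difference of the 40 was 0.44 and 29 (72.5%) were above 0, where the median of all genes tested was 0.00 and 50.4% were above 0. Leaving out each library in turn gave medians of 0.36 to 0.75, each with 0 called. The libraries of panobinostat cDC exceeded those of vehicle cDC without overlap for 15 genes (37.5%: Fos, Fosb, Fosl2, Junb, Egr1, Egr2, Ier3, Dusp1, Dusp6, Zfp36, Zfp36l1, Btg2, Myc, Mafk and Cd69), against 22.2% of all genes tested. They lay below for Dusp5 and Gadd45b (5%), against 18.8%.

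The RNA decay genes and the EGR and NR4A genes were all above 0 in cDC, with medians of 0.46 over 4 and 0.73 over 6 genes, and 8 of 9 AP-1 and small Maf genes were above 0. Egr1 stood at 360.4 ± 141 CPM (SD, n = 2) in vehicle cDC and 1048 ± 21.01 in panobinostat cDC, a difference of 1.54 ± 0.53 (adjusted p = 1). For Dusp6 the means were 59.9 ± 4.43 and 122 ± 27.6 CPM, a difference of 1.03 ± 0.29 (adjusted p = 1). For Btg2 they were 623 ± 170.2 and 1152 ± 4.02 CPM (0.89 ± 0.36, adjusted p = 1), and for Cd69 14.97 ± 9.84 and 37.4 ± 13.2 CPM (1.32 ± 0.54, adjusted p = 1). Fos, the most abundant of the list in panobinostat cDC, stood at 1287 ± 772 and 2991 ± 504 CPM (1.22 ± 0.64, adjusted p = 1). The acute stress genes did not share this direction without the replicate block: 4 of 6 were below 0, with a median of -0.29. Among these 4 were Hspa1a (-0.31 ± 2.63) and Hspa1b (-0.38 ± 2.60), both with wide errors. With the block both lay above 0 (0.98 and 0.88), each by less than its standard error. Under the block Ppp1r15a (0.30) and Dnajb1 (0.44) stayed above 0, and Gadd45a (-0.26) and Gadd45b (-0.42) stayed below. The direction of this group therefore depended on the block.

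Within each replicate number, 24 of the 40 genes (60%) were higher with panobinostat than with vehicle in both cDC pairs, against 34.4% of all genes tested. In pDC this held for 14 genes (35%), against 25.3%. Fitted on the 4 cDC libraries alone with the replicate block, 21 of the 40 genes (52.5%) had an unadjusted p under 0.05, against 18.6% of all genes in that fit, and 0 were called, against 0.782% (106 of 13556). That fit was chosen after seeing the data.

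In pDC with all libraries the panobinostat effect was above 0 for 20 of the 40 genes, with a median of -0.00, where the median of all genes tested was -0.14. Without panobinostat pDC replicate 2, the library that stood apart, the median was 0.49 with 28 above 0, against -0.07 for all genes, and without panobinostat pDC replicate 1 it was -0.36 with 16 above 0, against -0.92. These are the highest and lowest medians on leaving out each library in turn. By edgeR's quasi-likelihood test 0 were called, against 0.0913% of all genes (0.014% higher and 0.0773% lower), and 7 had an unadjusted p under 0.05, against 14.9%. DESeq2 called 2 (5%: Dusp2 and Zfp36l1), against 6.68% of all genes, and limma-voom 0. Without panobinostat pDC replicate 1, so that the library that stood apart was the lone panobinostat library, 11 of the 40 (27.5%) were called, against 55.3% of all genes. Both panobinostat libraries lay above vehicle for 13 genes (32.5%: Jund, Egr1, Ier2, Ier5, Nr4a2, Dusp1, Dusp2, Dusp6, Btg1, Klf2, Klf6, Rgs1 and Cd69), against 15.7% of all genes tested, and below for 4 (10%: Fosl2, Dusp4, Zfp36l1 and Mafk), against 26.5%.

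Zfp36l1 had the smallest p of the list in pDC, at 448 ± 46.7 CPM in vehicle and 186 ± 72.6 with panobinostat (-1.26 ± 0.28, adjusted p = 0.162). Dusp2 stood at 0.468 ± 0.0508 CPM in vehicle and 8.67 ± 9.67 with panobinostat (4.19 ± 1.23, adjusted p = 0.230), with the library that stood apart at 15.5. Egr1 stood at 42.9 ± 15.4 and 125 ± 80.9 CPM (1.54 ± 0.53, adjusted p = 0.278), the same estimate as in cDC. For Dusp4, at 0 reads with panobinostat, the level was at least 2.96-fold lower than the 11 reads of vehicle pDC gave (adjusted p = 0.268). Cd69 stood at 120.2 ± 50.1 and 327 ± 18.2 CPM (1.45 ± 0.54, adjusted p = 0.299).

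**Figure D4:**
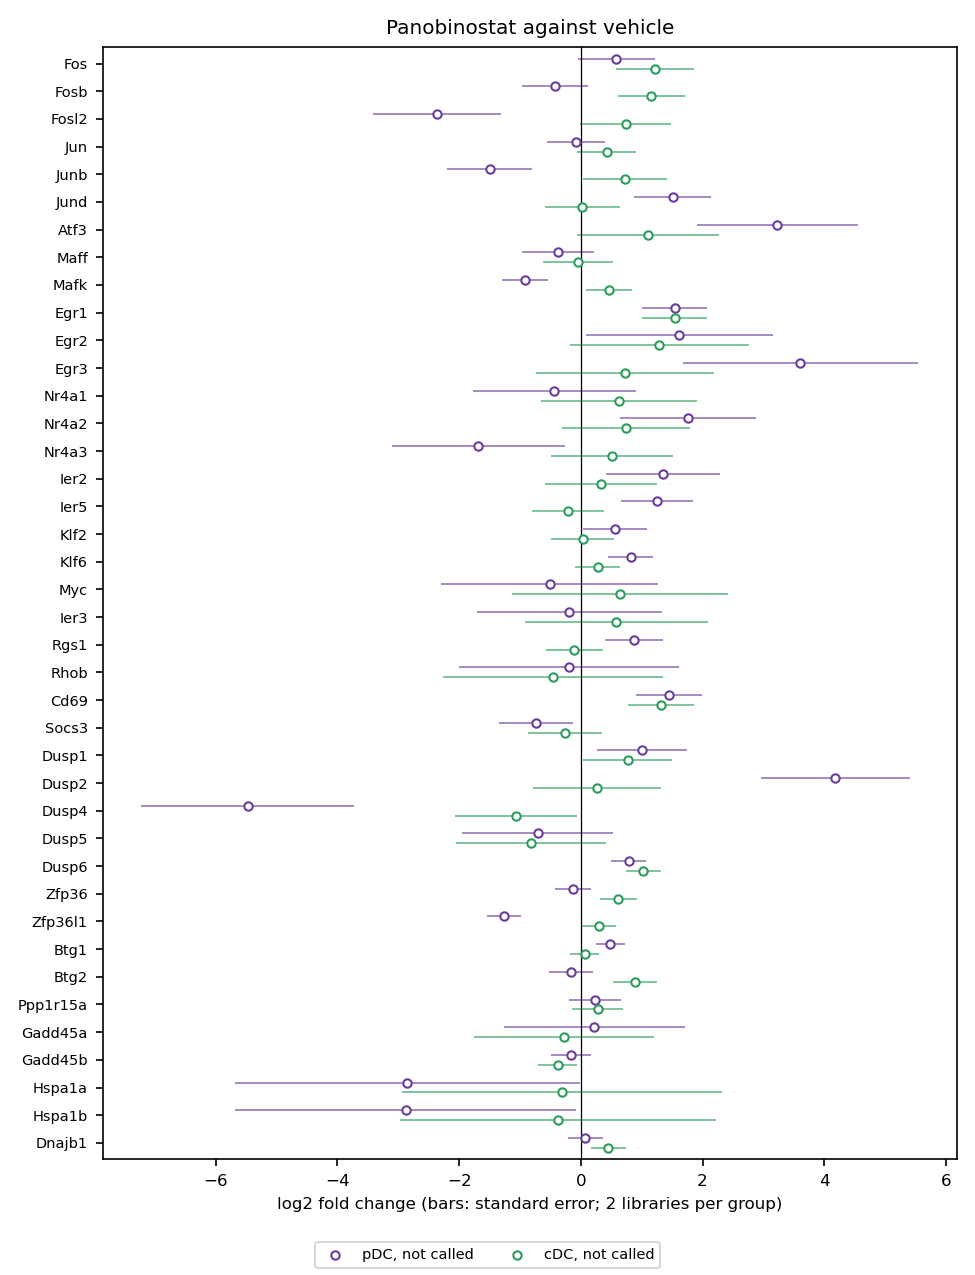
Log2 fold change of panobinostat against vehicle for the 40 genes tested, in pDC and cDC. Points are estimates and bars their standard errors, and no point is filled because no gene was called. The pDC points of Dusp4, Fosl2, Nr4a3 and Egr3 are fitted values. They rest on 0 reads (Dusp4) or 1 read (Fosl2 and Nr4a3) under panobinostat and on 1 read (Egr3) in vehicle. The cDC points lie mostly right of 0 with a median of 0.44, and the pDC points spread to both sides.

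Tested directly, the panobinostat effect differed between pDC and cDC for 0 of the 40 genes by edgeR, against 0.00702% of all genes tested, with 4 at an unadjusted p under 0.05 (Zfp36l1, Mafk, Dusp2 and Fosl2) against 7.77%. DESeq2 and limma-voom also called 0, while 13 (32.5%) were called without panobinostat pDC replicate 1, where 43.4% of all genes were. The median difference, pDC minus cDC, was -0.14, against -0.13 for all genes. It ran from -0.95 (without panobinostat pDC replicate 1, where all genes gave -0.92) to 0.32 (without vehicle pDC replicate 2, where all genes gave -0.10). Zfp36l1 gave -1.56 ± 0.40 (adjusted p = 0.403), Mafk -1.38 ± 0.54 (adjusted p = 0.610) and Dusp2 3.92 ± 1.57 (adjusted p = 0.632). Fosl2, with 1 read in panobinostat pDC and 7 in vehicle pDC (a vehicle to panobinostat ratio of 5.65, counting interval 0.726 to 254.7), gave -3.10 ± 1.28 (adjusted p = 0.640). For Egr1 and Cd69 the estimates were 0.00 ± 0.64 and 0.12 ± 0.75, whose errors leave room for unequal effects.

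The wider pathway was read from 4 further lists. Of 28 upstream kinases and factors, 1 was higher in pDC in vehicle (Rps6ka1, an ERK-driven kinase, 1.15 ± 0.25), which is 3.57%, below the 9.73% of all genes tested. With panobinostat 1 was higher (Mapkapk2, the p38-driven kinase, 1.55 ± 0.40) and 2 lower (Mrtfa, the actin-sensing partner of serum response factor, -2.61 ± 0.37, and Elk1, its ERK-driven partner, -5.30 ± 1.36), which is 10.7%, below the 18% of all genes. With the replicate block Mrtfa stayed called, and Rps6ka1 (adjusted p = 0.0609), Mapkapk2 (0.0520) and Elk1 (0.0646) did not. Elk1 read 0.644 and 0 CPM in panobinostat pDC, so its difference is a fitted value near the floor. Of 15 other bZIP factors, 3 were called in vehicle (20%, against 9.73% of all genes). All were lower in pDC, among them Batf3 and Maf. With panobinostat 3 were lower, among them Batf2 and Maf, and 2 higher, Nfe2l2 and Bach2 (33.3%, against 18%). Batf2 and Maf were at 0 in both panobinostat pDC libraries. The block ended the calls of Maf in vehicle (adjusted p = 0.0818), Nfe2l2 (0.0578) and Bach2 (0.0588). Of 24 further primary response genes tested, 2 were called in vehicle (8.33%, against 9.73%) and 6 with panobinostat (25%, against 18%). Gem was higher in pDC (2.65 ± 0.48 in vehicle) and Bhlhe40 lower (-1.17 ± 0.22 in vehicle). With panobinostat these were joined by Csrnp1, Plk2, Pim1 and Pim3, all lower, where Plk2 read 0.0992 and 0 CPM in pDC.

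Of 20 other heat shock genes, Hspa4 was lower in pDC in vehicle (-1.27 ± 0.27), and with panobinostat Hspa4 and Hsf2 were lower and Hsp90aa1 higher (0.74 ± 0.18). These are 5% of the list in vehicle, against 9.73% of all genes, and 15% with panobinostat, against 18%, and the block ended the call of Hsf2 (adjusted p = 0.0664). The constitutive HSP70 gene Hspa8 read 1637 and 1665 CPM in vehicle pDC against 2544 and 2903 with panobinostat, and 2418 and 2313 in vehicle cDC against 3378 and 3410.5 with panobinostat. Its replicates lay close together, unlike those of Hspa1a, and its panobinostat effect was 0.72 in pDC (adjusted p = 0.215) and 0.52 in cDC (adjusted p = 1). For panobinostat against vehicle, edgeR called 0 of the 87 genes tested on these lists in pDC and 0 in cDC, with 15 (17.2%, against 14.9% of all genes) and 1 (1.15%, against 1.45%) at an unadjusted p under 0.05, and limma-voom also called 0 in both. DESeq2 called 9 in pDC (10.3%, against 6.68% of all genes), among them the chaperone genes Hspa8, Hsp90aa1, Hsp90ab1 and Hspd1, and 0 in cDC.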

How the data were processed

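The deposited values are whole-number read counts per gene, 1 column for each of 8 libraries, which total 13124861 to 20657429. Per the labels' protocols, RNA from sorted spleen cells was made into libraries with a low-input kit. The submitters' processing notes name bcl2fastq (2.17.1.14), FastQC (0.11.6), cutadapt (2.1), HISAT2 (2.1.0), featureCounts of Subread (2.0.0), limma and mm10. Whether counting used strand, and how reads with several alignments were treated, is not given in the sources used here. Values of Hspa1a and Hspa1b, and of the 12 genes whose exons overlap a gene on the other strand (Fosl1, Jun, Junb, Jund, Dusp1, Dusp5, Zfp36, Zfp36l1, Mafk, Ppp1r15a, Gadd45a and Hspa1a), are therefore uncertain. Columns named D5W were taken as vehicle and LBH as panobinostat.

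The genes and lists were chosen with earlier results of these data known. Testing used edgeR (4.0.16) under R (4.3.3): genes kept by filterByExpr (minimum count 10, minimum total 15), TMM scaling, 1 coefficient per group over all 8 libraries (4 residual degrees of freedom), a quasi-likelihood F test and Benjamini-Hochberg adjustment. Standard errors come from the F statistic, and CPM uses TMM-scaled sizes. Values in every library are given for the genes called in any comparison, the 4 with the smallest p in each, and fixed examples of each role. Levels per kilobase use the exon union of GENCODE vM21, and promoters are those of the RefSeq table, which held 33 of the 41 genes. Counting intervals are exact binomial at 95% and cover counting error only, since no molecular identifiers are recorded. Replicate numbers came from the labels, which do not say what same-numbered pools share. Deviations from group means correlated between same-numbered libraries at 0.146 to 0.489 over all 6 pairs of groups, which was read as pairing by number. The fit as reported has no block. The scripts were checked on simulated counts. Not every called gene of the further lists is reported here. Alternatives were RLE scaling, other filters, DESeq2 (1.42.0), limma-voom (3.58.1), the replicate block, smaller fits and leaving out each library.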

Additional observations from a re-analysis of the deposited data

How the results depend on the processing

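Over 36 results for single genes, 589 values under other settings gave 463 on the same side of the threshold, 112 that no longer passed it, 14 that newly passed it and 0 of opposite direction. Counts of called genes among the 40 moved by over 1.5 times as follows. For pDC against cDC in vehicle, 8 were called as reported (20%, against 9.73% of all genes). With no filter on low counts 13 were called (31.7%, against 6.62% of all genes), and by DESeq2 15 (37.5%, against 21.5%). On only the 4 libraries compared 15 were called (39.5%, against 32.8%), and 23 on those with the replicate block (60.5%, against 43.4%). With edgeR's adjusted deviances 13 were called (32.5%, against 18.3%). For pDC against cDC with panobinostat (12 as reported), 1 was called on only the 4 libraries compared (2.5%, against 1.21%). For panobinostat in pDC (0 as reported) DESeq2 called 2 (5%, against 6.68%). For replicate 2 against replicate 1 (0 as reported) DESeq2 called 6 (15%, against 1.25%) and adjusted deviances 2 (5%, against 0.211%). The fits with adjusted deviances and on the 4 libraries with the block were chosen after seeing the data. The cause of these moves was not tested. Leaving out each library in turn gave 0 to 16 calls for pDC against cDC in vehicle, 0 to 27 with panobinostat, 0 to 11 for panobinostat in pDC, 0 to 13 for the difference, 0 to 0 for panobinostat in cDC and 0 to 0 between replicates. Where a group was left with 1 library, that library was assumed to vary like the others. In the cell type contrasts the calls among all genes fell and rose with those of the list. With the replicate block, 9 of the 40 genes were called between the cell types in vehicle, 14 with panobinostat and 0 for each panobinostat effect. Over all genes tested, the 13 calls for panobinostat in pDC became 0 with the replicate block, 2 with RLE scaling, 68 with no filter, 914 by DESeq2 and 0 by limma-voom. The 1385 calls between the cell types in vehicle became 2880 by DESeq2, and the 2557 with panobinostat became 4495. Fosl2, Nr4a3, Egr3 and Dusp4 had at most 15 reads in any pDC library, so their pDC levels carry wide counting intervals.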
